A study of Mus musculus with 18 samples.

Results

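Endothelial identity genes are the genes by which the cells lining blood vessels are usually recognised. The set described here holds 10 of them, chosen by symbol in the platform annotation: Pecam1, Cdh5, Kdr, Flt1, Tek, Tie1, Eng, Vwf, Klf2 and Nos3. All 10 are on the array, among 8251 genes with a probe set of a single symbol, and 13 of the 12422 non-control probe sets belong to them. After the filter on dim probe sets, 10 of the 10 genes and 12 of the 13 probe sets were tested. Flt1, Tie1 and Vwf have 2 probe sets each, and a gene is represented by its brighter one. The 2 of Tie1 were almost equally bright, with mean log2 signals of 10.2662 and 10.2645.

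The hearts came from mice with a cardiac-specific TNF-alpha transgene, written TG here, and from FVB mice without it, FVB being an inbred strain. There were 6 TG arrays of 3 weeks (3 labelled female, 3 labelled male), 3 TG male arrays of 13 weeks, 3 TG female arrays of 40 weeks, and 5 distinct FVB arrays of 3 weeks (2 female, 3 male). The labels describe the series as a study of compensated hypertrophy and dilated failure, and they name neither the promoter of the transgene nor the number of animals. Each array measured total RNA of heart. Separate animals are not stated for the arrays of a group, so the p-values below reflect variation among these arrays, part of which may be technical. All FVB arrays are of 3 weeks and the later ages differ in sex, so age, disease stage and sex cannot be told apart beyond the comparisons made within a sex.

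Pecam1 (CD31) and Cdh5 (VE-cadherin) hold endothelial cells to each other at their junctions. Kdr (VEGF receptor 2) carries most of the growth signal of VEGF-A, while Flt1 (VEGF receptor 1) binds the same ligand tightly with little kinase activity and so limits it; Tek (Tie2) is the receptor of the angiopoietins and Tie1 its partner. Eng is a co-receptor for BMP9 and TGF-beta ligands, Vwf the clotting factor stored in endothelial granules, Klf2 a transcription factor induced by blood flow, and Nos3 the endothelial nitric oxide synthase. In the heart these cells form a dense capillary bed around the muscle fibres and supply them with fatty acids and oxygen.

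The promoters of the 4 receptor tyrosine kinases are shown because Flt1 and Tek were the members whose lower level held in every alternative processing, and Kdr and Tie1 are their closest relatives in the set. Each is the 250 bases before the start site that the RefSeq promoter table (GRCm38.p6) gives for the gene, 5′ to 3′ on the gene's strand, with GGAA and its reverse complement TTCC, the core of sites for ETS transcription factors, in capitals. Positions are chr5:147726012-147726261 on the minus strand for Flt1, chr5:75978456-75978705 on the minus strand for Kdr, chr4:94739039-94739288 on the plus strand for Tek and chr4:118489850-118490099 on the minus strand for Tie1.
Flt1: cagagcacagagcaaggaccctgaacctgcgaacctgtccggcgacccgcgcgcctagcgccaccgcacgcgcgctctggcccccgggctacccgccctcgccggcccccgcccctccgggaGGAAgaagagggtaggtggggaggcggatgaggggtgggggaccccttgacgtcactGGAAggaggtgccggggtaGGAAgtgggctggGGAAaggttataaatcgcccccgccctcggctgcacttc
Kdr: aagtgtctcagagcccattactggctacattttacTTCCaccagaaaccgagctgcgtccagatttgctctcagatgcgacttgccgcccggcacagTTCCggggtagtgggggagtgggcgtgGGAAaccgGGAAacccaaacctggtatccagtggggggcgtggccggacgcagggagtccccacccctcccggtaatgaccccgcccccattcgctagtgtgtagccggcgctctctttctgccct
Tek: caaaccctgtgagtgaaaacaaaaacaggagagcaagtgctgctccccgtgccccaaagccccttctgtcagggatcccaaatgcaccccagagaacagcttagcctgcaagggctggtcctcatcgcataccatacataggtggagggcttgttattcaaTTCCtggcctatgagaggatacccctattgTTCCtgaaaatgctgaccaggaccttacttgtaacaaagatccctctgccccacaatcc
Tie1: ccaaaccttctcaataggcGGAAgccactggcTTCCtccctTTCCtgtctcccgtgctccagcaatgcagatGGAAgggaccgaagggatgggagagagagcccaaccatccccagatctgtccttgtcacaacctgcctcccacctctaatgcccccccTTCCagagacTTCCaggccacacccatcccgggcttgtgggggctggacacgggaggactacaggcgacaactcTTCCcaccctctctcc

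Both motifs were counted together, so that either strand is covered, and no 2 matches overlap in these windows. The Flt1 and Kdr windows hold 4 matches each, a number that 33.4% of the 32851 promoters of the same length in the table reach or exceed. Tek holds 2 matches, reached by 76.8% of promoters, and Tie1 holds 7, reached by 3.82%. The median promoter holds 3. The Flt1 window also has a single TGACGTCA, the palindromic cyclic AMP response element, which occurs in 1.55% of promoters and lies in lower case a few bases before its second GGAA. That start site is not always the outer end of the RefSeq gene span: the Flt1 and Kdr windows lie wholly inside the span and 203 of the 250 Tek bases do, whereas none of the Tie1 window does. These matches describe the letters and say nothing of binding. The table matched 6 of the 10 members, and Pecam1, Cdh5, Vwf and Nos3 were not among them.

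Several facts about the arrays bear on the values. A pair of FVB female columns hold identical values in every probe set and were counted as 1 array, called FVB female 1. This array stood apart: its Spearman correlation with the others was 0.775 to 0.856, against 0.891 to 0.977 among the others, and 7.33% of its probe sets lay at the floor of 44.675 signal units, compared with 23.7% to 28.3% elsewhere. FVB males 1 and 2 carried Xist, the RNA of the inactive X chromosome, at 1381 and 2706 signal units beside the Y-linked Eif2s3y at 298.7 and 67.4, so their labelled sex is in doubt. FVB female 1 also held Eif2s3y, at 115.3 beside Xist at 2075. The TG females of 3 weeks had Eif2s3y at 7.6, 30.8 and 19.4. Whether the value of FVB female 1 is Y-linked RNA or background was not tested. The transgene was measured at 5476 to 11343 signal units of Tnf on the 6 TG arrays of 3 weeks, against 12.5 to 124.9 on the FVB arrays, with a log2 difference of 7.31. All 11 cardiomyocyte marker genes with a probe set were above the floor on some array of every group.

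At 3 weeks the set did not move as a block. Flt1, Tek and Pecam1 were lower in TG hearts, Flt1 by 2.19-fold, Tek by 1.54-fold and Pecam1 by 2.24-fold, while Cdh5, Kdr, Tie1, Eng, Vwf, Klf2 and Nos3 did not pass the test. That is 3 of 10 members lower and 0 higher in limma at an adjusted p of 0.05, and 4 of 10, with Tie1, at an unadjusted p under 0.05. By its second, almost equally bright probe set, Tie1 had an unadjusted p of 0.779 in limma. Of the 7453 probe sets tested, 46.6% were called, 21.9% lower and 24.7% higher, so the share of members called is no higher than that of the array as a whole. The median log2 difference of the members was -0.18, beside -0.01 over all probe sets tested. In tissue RNA, fewer endothelial cells and less RNA of a gene per cell cannot be told apart.

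**Figure D1:**
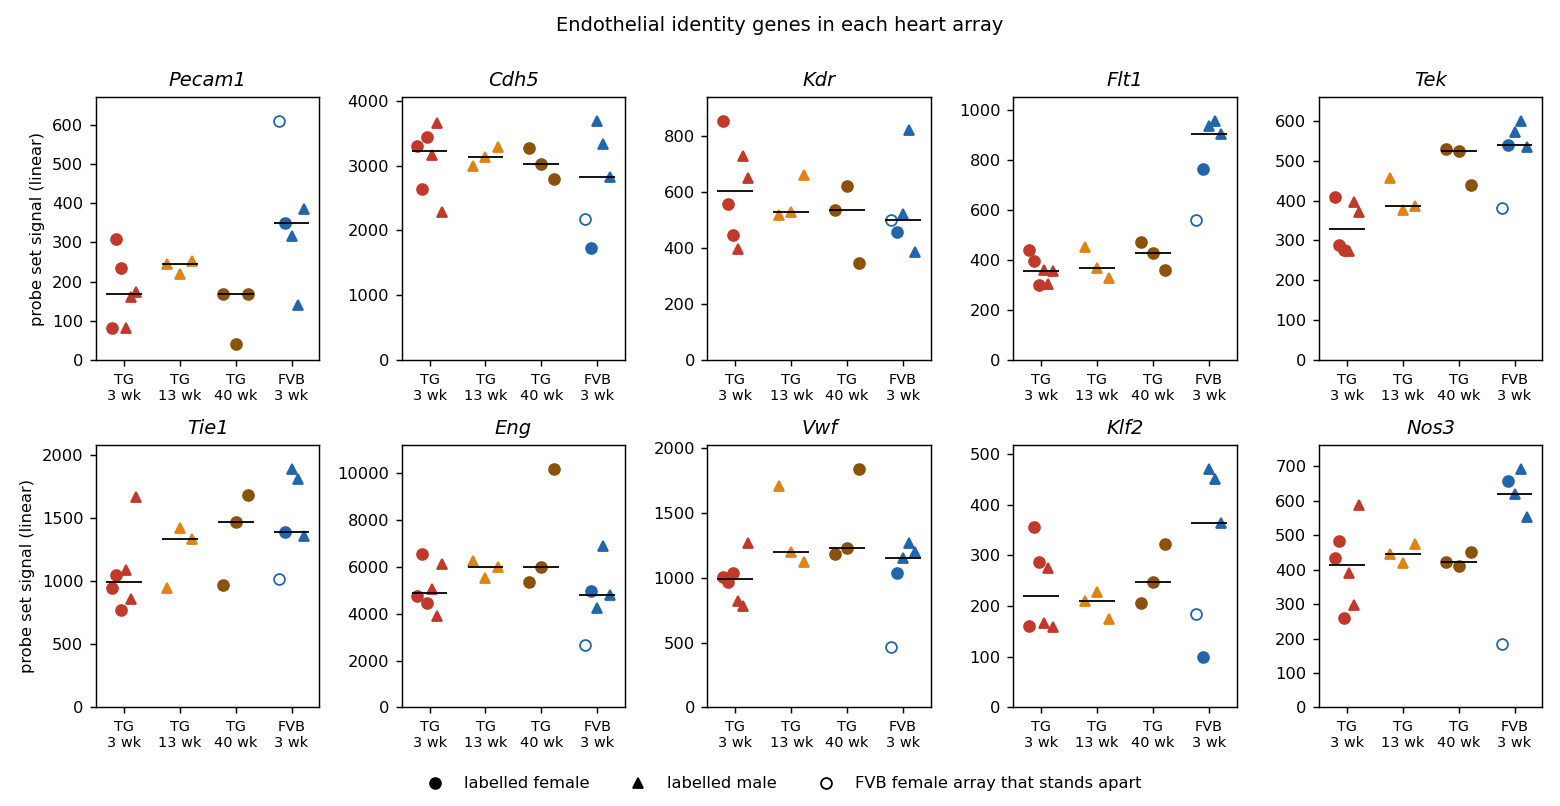
Probe set signal (linear scale, each panel from 0) of the 10 endothelial identity genes on each distinct array, for TG hearts of 3, 13 and 40 weeks and FVB hearts of 3 weeks. Points are arrays, circles labelled female and triangles labelled male, bars are group medians, and the open circle is FVB female 1. Each gene is shown by its brighter probe set. In the Flt1 panel the highest TG point, 471.1, lies below the lowest FVB point, 558.

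Flt1, the decoy-like VEGF receptor, had 298.7 signal units at the lowest, 356.7 at the median and 438.3 at the highest of the 6 TG arrays of 3 weeks, against 558.0, 762.3, 933.9, 955.1 and 901.9 on the FVB arrays. The groups do not overlap, and the FVB array closest to the TG arrays is FVB female 1. Non-overlap downward occurred in 9.14% of the probe sets tested, and in either direction in 23.6%. The log2 difference was -1.13 (SE 0.15, adjusted p = 1.29e-05 in limma). Without FVB female 1 it was -1.25, and without that array and FVB males 1 and 2 it was -1.22 (adjusted p = 2.97e-04 in limma).

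On this brighter probe set the lower Flt1 signal was found in both labelled sexes, and the arrays of each labelled sex did not overlap. Such separation, in one direction or the other, occurred in 53% of probe sets tested in females and in 45.9% in males. TG females had 438.3, 396.8 and 298.7 against 558.0 and 762.3 in FVB females (log2 difference -0.81, SE 0.22, adjusted p = 0.0107 in limma), and TG males had 358.3, 303.6 and 355.1 against 933.9, 955.1 and 901.9 in FVB males (-1.46, SE 0.19, adjusted p = 3.01e-05 in limma). In the females the call was lost with array weights (adjusted p = 0.105), in a fit of only the compared groups (0.0966) and without FVB female 3 (0.0805). The difference between the sexes was 0.65 (adjusted p = 0.28 in limma) and did not pass.

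The second Flt1 probe set did not repeat the pooled result. It had 198.1 to 466.2 signal units on the 6 TG arrays, against 165.4, 269.9, 682.0, 697.3 and 839.2 on the FVB arrays, with a log2 difference of -0.21 (SE 0.25, adjusted p = 0.519 in limma). In males it was lower in TG hearts, at 198.1, 441.4 and 373.7 against 682.0, 697.3 and 839.2 (2.30-fold lower, SE 0.33 on the log2 scale, adjusted p = 0.0119 in limma). In females it had the opposite sign without passing, at 414.6, 249.9 and 466.2 in TG hearts and 165.4 and 269.9 in FVB hearts (0.79, SE 0.37, adjusted p = 0.113 in limma). The files do not say which Flt1 transcripts each probe set reads.

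Tek, the angiopoietin receptor, had 273.7, 329.8 and 408.4 signal units at the lowest, median and highest of the 6 TG arrays of 3 weeks, against 381.6, 539.6, 573.0, 599.6 and 535.4 on the FVB arrays. The overlap came from FVB female 1 alone, which lay at 381.6 below the TG female 1 and TG male 2 arrays. The log2 difference was -0.62 (SE 0.15, adjusted p = 0.00388 in limma) and kept its direction and its side of the threshold under all 30 alternatives. Within males the arrays separated, as did 45.9% of probe sets tested in one direction or the other. TG males had 273.7, 396.7 and 372.2 against 573.0, 599.6 and 535.4 in FVB males (-0.73, SE 0.20, adjusted p = 0.0126 in limma). That male call was lost without FVB female 1 and FVB males 1 and 2 (adjusted p = 0.124) and without TG male 1 (0.0702). Within females the difference was -0.51 (adjusted p = 0.0926 in limma), and without TG female 1 it passed (-0.69, adjusted p = 0.0431).

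Pecam1, the junctional adhesion molecule that leukocytes and platelets also carry, had the largest SE of the set. It stood at 80.5, 167 and 307.6 signal units at the lowest, median and highest of the 6 TG arrays of 3 weeks, against 609.8, 348.6, 316.5, 140.5 and 385.3 on the FVB arrays. The highest FVB value is that of FVB female 1, and FVB male 2 at 140.5 lay inside the TG range. The log2 difference of -1.16 had an SE of 0.41 and an adjusted p of 0.03 in limma. The call was lost under 8 of 29 alternatives: without a filter (adjusted p = 0.0768), with array weights (0.163), without FVB female 1 (0.121), FVB male 1 (0.0615), FVB male 3 (0.0719), TG female 1 (0.0802) or TG male 1 (0.0698), and without the 3 doubted FVB arrays together (0.0866). In these its log2 difference lay between -1.25 and -0.87.

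Cdh5, the defining junction protein of endothelium and a bright probe set, was not lower. It had 2285, 3228 and 3656 signal units at the lowest, median and highest of the 6 TG arrays, against 2174, 1723, 3688, 3338 and 2824 on the FVB arrays (log2 difference 0.27, SE 0.15, adjusted p = 0.134 in limma). The FVB values split by labelled sex, with both females below all 3 males. Within females Cdh5 was higher in TG hearts, at 3297, 2632 and 3434 against 2174 and 1723 (log2 difference 0.68, SE 0.22, adjusted p = 0.0244 in limma). That call was lost with array weights (adjusted p = 0.153), in a fit of only the compared groups (0.112), and without FVB female 3 (0.129), TG female 1 (0.0685) or TG female 3 (0.0787). Within males the difference was -0.13 (adjusted p = 0.656).

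Kdr, the signalling VEGF receptor, had 397.4, 603.7 and 853.2 signal units at the lowest, median and highest of the 6 TG arrays, against 500.2, 457.3, 520.1, 821.7 and 384 on the FVB arrays. The ranges lie almost on top of each other, and the log2 difference was 0.19 (SE 0.24, adjusted p = 0.53 in limma). Tie1, the partner of Tek, averaged 1064 ± 318 in TG hearts (SD, n = 6) and 1497 ± 358 in FVB hearts (SD, n = 5), with a log2 difference of -0.46 (SE 0.20, adjusted p = 0.0764 in limma). It passed after quantile normalisation (adjusted p = 0.043) and without TG male 3, the highest TG array at 1667 (0.024). Its second probe set had a difference of -0.05 over both sexes, and -0.62 in males (SE 0.22, adjusted p = 0.0457 in limma). The male arrays did not overlap, as in 45.9% of probe sets tested in one direction or the other. In females the difference of this probe set was 0.52 (SE 0.25, adjusted p = 0.111) and did not pass.

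Eng, the brightest of the set, averaged 5141 ± 1009 in TG hearts (SD, n = 6) and 4722 ± 1512 in FVB hearts (SD, n = 5), with a log2 difference of 0.21 (SE 0.22). Vwf averaged 980.2 ± 174.1 in TG hearts (SD, n = 6) and 1024 ± 322 in FVB hearts (SD, n = 5), with a log2 difference of 0.08 (SE 0.21). Neither passed in limma, with adjusted p of 0.434 for Eng and 0.78 for Vwf. FVB female 1 held the lowest FVB value of both genes, and without it the differences were -0.01 for Eng and -0.21 for Vwf, so their sign rests on that array. The second Vwf probe set was below the filter, at 106.2 on FVB female 1 and at most 24.3 on every other array, all under the floor.

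Nos3, which makes nitric oxide in endothelium and is also made by heart muscle cells, had 259.7, 411.9 and 588.4 signal units at the lowest, median and highest of the 6 TG arrays, against 182.7, 657.7, 619.6, 693.2 and 551.8 on the FVB arrays. FVB female 1 was below all TG arrays, and only TG male 3 reached the range of the other 4 FVB arrays. The log2 difference was -0.24 (SE 0.27, adjusted p = 0.502 in limma). Without FVB female 1 it was -0.70 (SE 0.21, adjusted p = 0.0167 in limma). Without that array and FVB males 1 and 2 it was -0.61 (adjusted p = 0.0817).

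Klf2, the flow-induced transcription factor, differed in opposite directions in the labelled sexes. TG females had 159.6, 355.7 and 286.3 signal units against 185.0 and 99.9 in FVB females (log2 difference 0.90, SE 0.35, adjusted p = 0.0543 in limma). TG males had 166.7, 274.2 and 157.7 against 470.9, 449.3 and 363.2 in FVB males (-1.14, SE 0.31, adjusted p = 0.0104 in limma). The male arrays do not overlap, as in 45.9% of probe sets tested in one direction or the other, and the female arrays do. The male call was lost without FVB female 1 and FVB males 1 and 2 (adjusted p = 0.141) and without TG male 3 (0.0515). The difference between the sexes, 2.04 on the log2 scale (SE 0.46), had an unadjusted p of 4.6e-04 and an adjusted p of 0.1 in limma. The TG arrays of the sexes overlap, and the FVB arrays part by sex label. FVB males 1 and 2, at 470.9 and 449.3, carried Xist, so the FVB values part by the label and not by that marker. The female difference passed under 6 alternatives, among them quantile normalisation (1.13, adjusted p = 0.0169).

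Counted by sex, 2 of 10 members passed in females, Cdh5 higher and Flt1 lower, where 34.7% of all probe sets tested were called. In males 3 of 10 passed, Flt1, Klf2 and Tek, all lower, where 29.7% were called, 12.8% lower. The median member difference was 0.22 in females and -0.56 in males, beside 0.02 in females and 0.0034 in males over all probe sets tested. Tested as a contrast of its own, the sex difference was called by limma for 0 of 10 members and 0% of all probe sets. At an unadjusted p of 0.05 it included 4 members, Cdh5, Flt1, Vwf and Klf2, and 16.5% of all probe sets. Under a common median the median sex difference of all probe sets moved to 0.39, beside 0.04 as deposited.

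**Figure D2:**
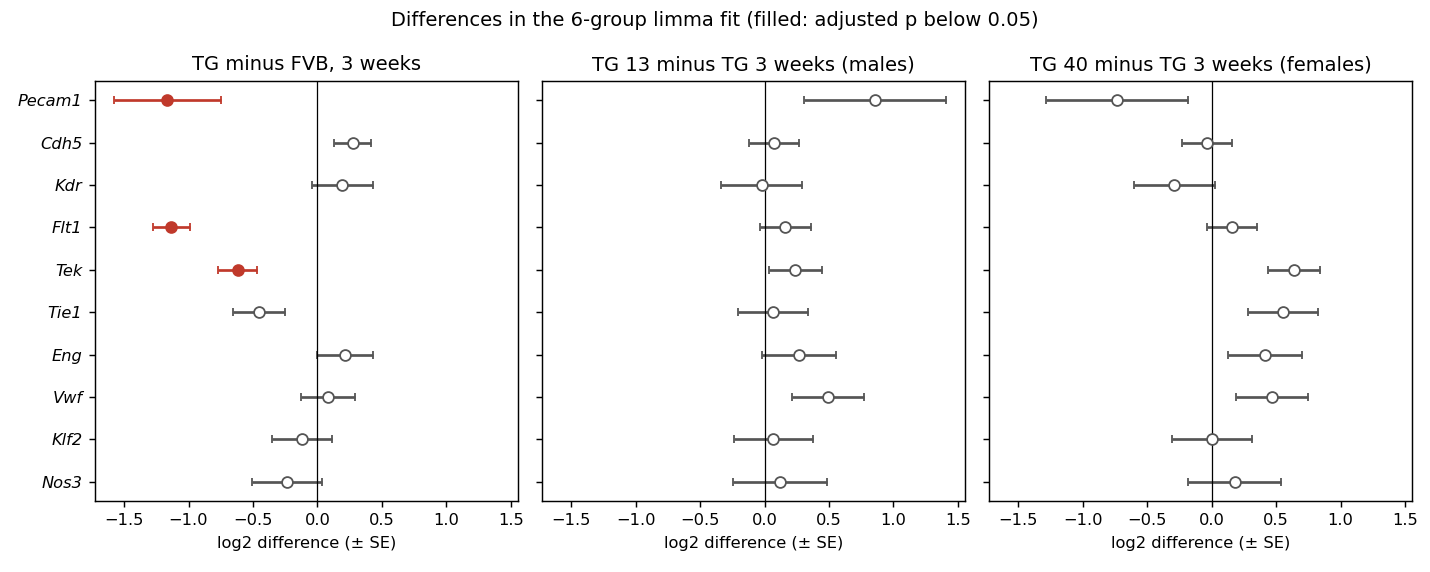
Log2 differences with SE of the 10 members in the limma fit of 6 groups, for TG minus FVB at 3 weeks, TG of 13 minus 3 weeks in males and TG of 40 minus 3 weeks in females. Filled points passed an adjusted p of 0.05, which at 3 weeks are Pecam1 (-1.16), Flt1 (-1.13) and Tek (-0.62), and no point is filled in the other panels.

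Dividing the receptors by each other within an array gives a view that a scaling of the whole array cannot move. The pairs were chosen after the values were seen, so the ratios are a description with no test, and they depend on the probe sets that represent the genes. The log2 ratio of Flt1 over Kdr ran from -1.26 to -0.15 on the 6 TG arrays of 3 weeks, from -1.01 to -0.20 on the 3 of 13 weeks and from -0.54 to 0.04 on the 3 of 40 weeks, against 0.16 to 1.23 on the FVB arrays. No TG array of any age reached the FVB range. With the second Flt1 probe set the ranges overlapped, at -1.15 to 0.06 on the TG arrays of 3 weeks and -1.60 to 1.13 on the FVB arrays. Flt1 over Cdh5 behaved likewise, at -3.59 to -2.69 on the TG arrays of 3 weeks and -1.98 to -1.18 on the FVB arrays. Tek over Tie1 overlapped, with -2.16 to -1.12 on the TG arrays of 3 weeks and -1.73 to -1.35 on the FVB arrays.

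**Figure D3:**
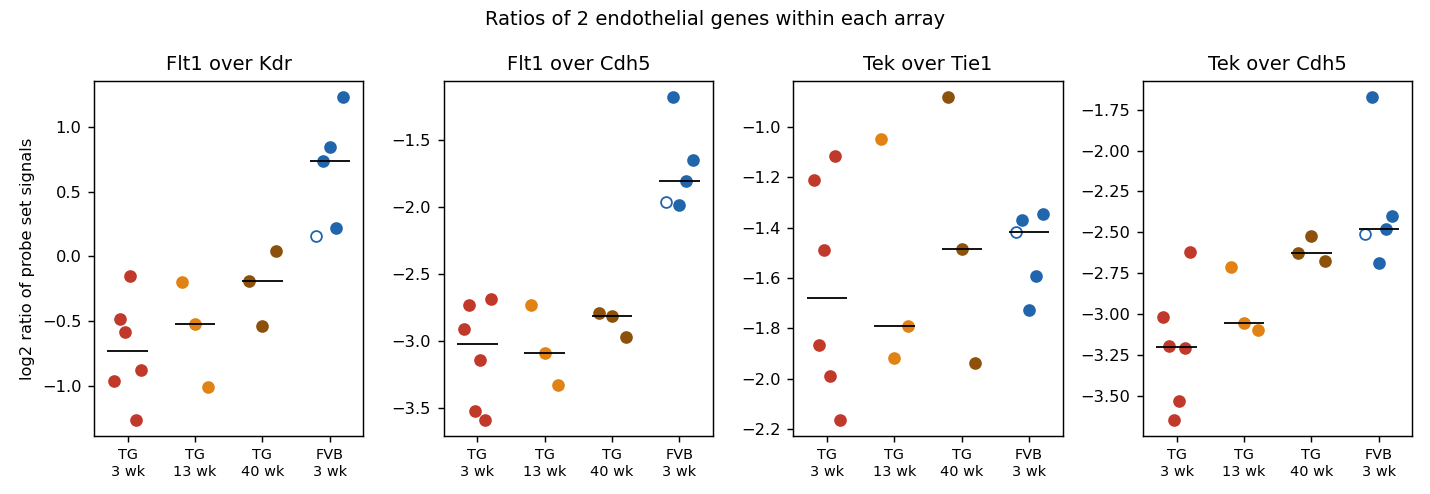
Log2 ratios of 2 members' signals within each array, by group, where bars are medians, the open circle is FVB female 1 and each gene is represented by its brighter probe set. For Flt1 over Kdr all TG points lie at or below 0.04 and all FVB points at or above 0.16, and for Tek over Tie1 the groups overlap.

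From 3 to 13 weeks in TG males, no member passed. The count was 0 of 10 in limma and 0 of 10 at an unadjusted p of 0.05, where 0.523% of all probe sets tested were called and 8.61% had an unadjusted p under 0.05. Of the 10 differences, 9 were above 0, with a median of 0.14. Over all probe sets tested the median was -0.0051 and 50.6% were below 0. A joint rise of the members was not tested. Pecam1 had 245.1, 219.3 and 253.1 signal units at 13 weeks, against 81.9, 159.9 and 174.2 at 3 weeks (log2 difference 0.86, SE 0.55, adjusted p = 0.777 in limma). The 13-week arrays all lie above the 3-week arrays, a separation that 15.8% of all probe sets showed in one direction or the other. Flt1 had 451.1, 367.2 and 326.7 at 13 weeks against 358.3, 303.6 and 355.1 at 3 weeks, with a log2 difference of 0.16 (SE 0.19).

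From 3 to 40 weeks in TG females, again 0 of 10 members passed in limma, where 0.671% of all probe sets were called. At an unadjusted p of 0.05 there was 1 member, Tek, where 9.1% of all probe sets had such a p. Tek had 528.8, 525.1 and 438.9 signal units at 40 weeks, against 408.4, 287.4 and 275.1 at 3 weeks (log2 difference 0.64, SE 0.20, adjusted p = 0.258 in limma). All 40-week arrays lie above all 3-week arrays, and 17.1% of all probe sets separated in one direction or the other. With array weights Tek passed (0.75, adjusted p = 0.00402), as did Tie1 (0.73, 0.0205) and, downward, Pecam1 (-1.78, 0.0179), whose array TG female 2 of 40 weeks lay under the floor at 40.7.

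Ordered by mean signal, Flt1 stood at 358.5 ± 53.7 in TG hearts of 3 weeks (SD, n = 6), 381.7 ± 63.5 at 13 weeks (SD, n = 3) and 419.4 ± 57.3 at 40 weeks (SD, n = 3), against 822.2 ± 165.7 in FVB hearts of 3 weeks (SD, n = 5). Neighbouring TG ages lie within 1 SD of each other, and all 12 TG arrays, 298.7 to 471.1, lie below all 5 FVB arrays, 558.0 to 955.1. That downward separation of all ages occurred in 5.18% of the probe sets tested and, by the representing probe sets, in no other member. The second Flt1 probe set did not separate. It had 310.2 to 651.1 at 13 weeks and 254.9 to 357.4 at 40 weeks, inside the FVB range of 165.4 to 839.2. Tek stood at 335.6 ± 63.5 at 3 weeks, 406.7 ± 44.6 at 13 weeks and 497.6 ± 50.9 at 40 weeks in TG hearts, against 525.8 ± 84.8 in FVB hearts of 3 weeks, and the step between TG of 40 weeks and FVB lies within 1 SD. No FVB heart of 40 weeks was measured, so the later Tek values have no counterpart of the same age.

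None of the other members was called at 13 or at 40 weeks against TG hearts of 3 weeks of the same sex. Cdh5 averaged 3077 ± 518, 3138 ± 149 and 3028 ± 232 in TG hearts of 3, 13 and 40 weeks, against 2749 ± 809 in FVB hearts. Kdr averaged 605.5 ± 172.8, 568.2 ± 78.7 and 502 ± 140.8 at those ages, against 536.7 ± 167.7 in FVB hearts. Nos3 averaged 408.6 ± 121, 445.5 ± 27.2 and 428.5 ± 21.1, against 541 ± 207 in FVB hearts, with the 6 later TG arrays packed between 411.6 and 473.2. Klf2 averaged 233.4 ± 83.7, 203.9 ± 27.8 and 258.3 ± 59.1, against 313.7 ± 164.2 in FVB hearts. Eng averaged 5141 ± 1009, 5943 ± 370 and 7186 ± 2634, the 40-week value carrying a single array at 10206, against 4722 ± 1512 in FVB hearts. Vwf averaged 980.2 ± 174.1, 1340 ± 321 and 1417 ± 367, against 1024 ± 322 in FVB hearts. Its female arrays of 40 weeks all lie above those of 3 weeks (log2 difference 0.47, SE 0.28, adjusted p = 0.701 in limma). In that comparison 17.1% of all probe sets separated in one direction or the other. Tie1 averaged 1064 ± 318, 1235 ± 253 and 1376 ± 364, against 1497 ± 358 in FVB hearts. Pecam1 averaged 173.2 ± 88.3, 239.2 ± 17.7 and 126 ± 73.9, against 360.1 ± 168.3 in FVB hearts. All of these are SDs over 6, 3 and 3 TG arrays and 5 FVB arrays, and TG hearts of 13 and 40 weeks were not compared by a test.

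The ligands of these receptors changed in both directions at 3 weeks. For the counts in this and the following lists, 24.7% of all probe sets tested were called higher and 21.9% lower. Of 8 VEGF, angiopoietin and apelin ligands on the array 6 were tested, of which 2 were higher and 3 lower, with a median log2 difference of -0.55. Vegfc, the lymphatic growth factor, was higher in TG hearts, at 358.1 ± 43.2 (SD, n = 6) against 124 ± 38.3 in FVB hearts (SD, n = 5; log2 difference 1.56, SE 0.18, adjusted p = 5.3e-06 in limma). Angpt2, which acts on Tek, was higher by 0.39 on the log2 scale (SE 0.15, adjusted p = 0.0425). Its difference was 0.74 in males (adjusted p = 0.00985 in limma) and 0.04 in females (0.907), and the arrays of 3 weeks overlapped. Vegfb, a ligand of Flt1 and not of Kdr, was lower, at 1823 ± 403 in TG hearts against 3748 ± 388 in FVB hearts (-1.05, SE 0.14, adjusted p = 1.76e-05). Vegfa, which binds both, was lower by 0.85 on the log2 scale (SE 0.27, adjusted p = 0.0188), and Pgf, another ligand of Flt1 named after its value was seen, had a difference of -0.65 (adjusted p = 0.00663). Vegfa differed by -1.29 in females and -0.41 in males, and passed only in females, where the FVB arrays include FVB female 1. Pgf differed by -0.40 in females and -0.91 in males, and passed only in males. Angpt1, the main activator of Tek, was below the filter.

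Among 8 further endothelial receptors tested, 3 were higher and 2 lower, with a median of 0.05, beside 46.6% of all probe sets called in either direction. Plxnd1, a semaphorin receptor, was higher by 0.99 on the log2 scale and Flt4, the receptor of VEGF-C, by 0.83, while S1pr1, the sphingosine-1-phosphate receptor, differed by -0.75 and Bmpr2 by -0.45. By sex, Plxnd1, Flt4 and S1pr1 passed in females only, and Bmpr2 in neither. S1pr1 differed by -1.14 in females and by -0.36 in males. Of 17 endothelial transcription factors tested, 3 were higher and 3 lower, with a median of 0.13. Ets1, an ETS factor, was higher (1.25, SE 0.28, adjusted p = 0.00169 in limma), as was Klf6 (0.64), and Epas1, the hypoxia-inducible factor 2 alpha, was lower (-0.92), as was Gata2 (-0.62). The other ETS-family genes tested from that list, Fli1 (0.37), Ets2 (0.21) and Elk3 (0.13), did not pass. Of 7 Notch pathway genes tested, Rbpj was higher (0.98), Dll1 (-0.70) and Hes1 (-0.44) were lower, and the median was -0.30.

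Of 12 junction and surface genes of endothelium tested, 5 were higher and 1 lower, with a median of 0.38. Calls over all probe sets tested were 24.7% higher and 21.9% lower. Jam3 was 2.30-fold and Mcam (CD146) 2.17-fold higher, both with TG arrays above all FVB arrays. Separation in one direction or the other occurred in 23.6% of probe sets tested. Cdh13, T-cadherin, was lower (-1.06, SE 0.22, adjusted p = 0.00108 in limma). Cd93 (0.97), Cd34 (0.75) and Cldn5 (0.75) were the other 3, named after their values were seen. Of 13 genes of vascular tone, clotting and caveolae, 2 were higher, Procr (1.78) and the plasminogen activator Plat (0.91), and 2 lower, Bmp6 (-1.11) and Bmp4 (-1.04), with a median of -0.05. The caveolin Cav1 (-0.19), thrombomodulin Thbd (-0.37) and endothelin Edn1 (0.35) did not pass.

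Of 9 genes of capillary water and lipid transport tested, 6 were lower and 1 higher, with a median of -0.79. Among all probe sets tested, 21.9% were called lower and 24.7% higher. Aqp1, the water channel of capillaries, had 416.6 ± 255.2 signal units in TG hearts (SD, n = 6) and 3843 ± 1349 in FVB hearts (SD, n = 5), a log2 difference of -3.31 (SE 0.28, adjusted p = 1.27e-07 in limma). Cd36, the fatty acid carrier, differed by -1.31 and Fabp5, which passed upward, by 0.48. Heart muscle cells also make Cd36. Of 5 endothelial activation genes tested, 4 were higher, led by Icam1 (3.51) and Vcam1 (3.06), and Lrg1 was lower (-1.59). Of 4 lymphatic endothelial genes tested, Pdpn (1.72) and Flt4 were higher and Lyve1 (-0.81) was lower. In these lists no gene was called in either age comparison except Lrg1, which was higher at 13 weeks than at 3 weeks in TG males (1.44, adjusted p = 0.0142).

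**Figure D4:**
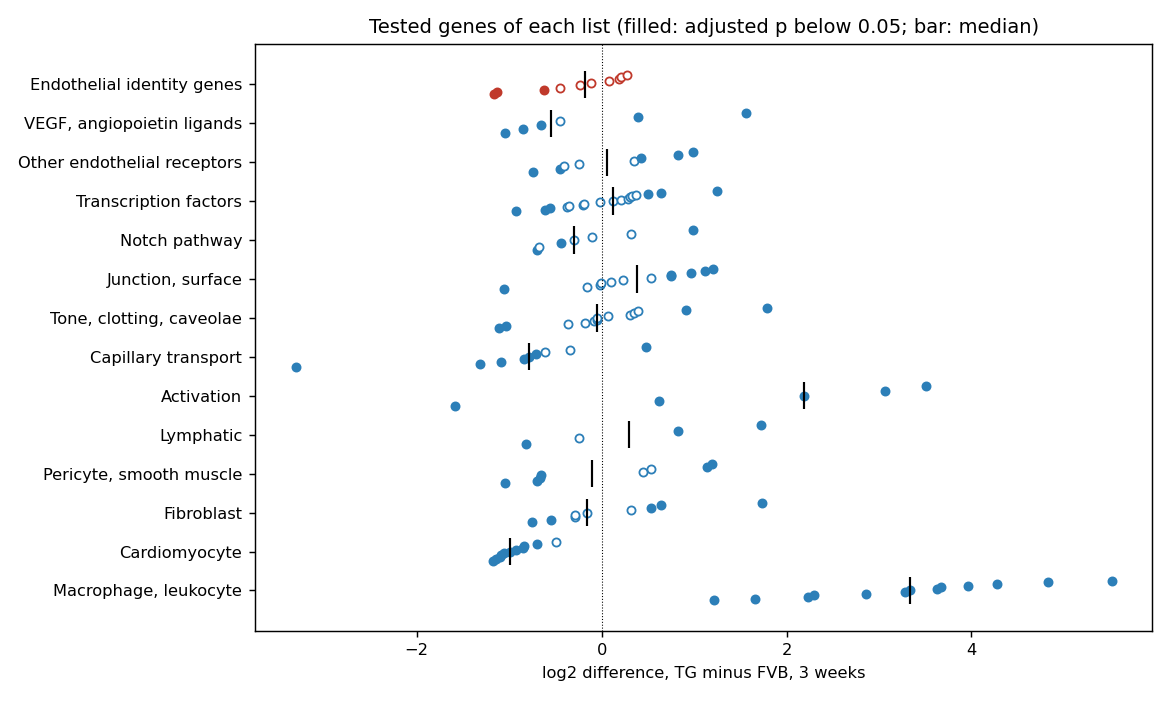
Log2 difference of TG minus FVB at 3 weeks for each tested gene of the 10 members and of 13 other lists. Each point is a gene, filled where the adjusted p was below 0.05, and bars are list medians, at -0.18 for the members, 0.38 for junction and surface genes, -0.79 for capillary transport and 3.33 for macrophages and other leukocytes.

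Markers of other cells moved with the same comparison, in which 24.7% of all probe sets tested were called higher and 21.9% lower. All 13 macrophage and leukocyte markers tested, of 16 on the array, were higher in TG hearts of 3 weeks, with a median log2 difference of 3.33, led by Lgals3 (5.52) and Cd53 (4.83), and the summed signal of the list was 46848 to 62196 on the TG arrays against 4997 to 7150 on the FVB arrays. Of 8 lymphocyte markers tested 6 were higher, led by Zap70 (2.73) and Il7r (2.43), with a median of 1.45. The list's sum was 1892 to 3736 on the TG arrays (median 3052) against 700.7 to 2624 on the FVB arrays (median 906.8). Cardiomyocyte markers were lower in 10 of 11, led by Ryr2 (-1.17) and Ckm (-1.15), with a median of -0.99 and a sum of 108518 to 215327 on the TG arrays against 208010 to 337976 on the FVB arrays. Of 3 erythroid markers tested 2 were lower, Hba-a1 (-0.82) and Slc4a1 (-0.79), with a sum of 13776 to 24586 on the TG arrays against 25965 to 39224 on the FVB arrays. Of 8 tested pericyte and smooth muscle markers 2 were higher, Acta2 (1.19) and Tagln (1.14), and 4 lower, led by Rgs5 (-1.04) and Abcc9 (-0.70). Of 9 fibroblast markers 3 were higher, led by Thy1 (1.74) and Col1a2 (0.64), and 2 lower, Tcf21 (-0.75) and Dcn (-0.55). None of the 5 platelet and megakaryocyte markers on the array passed the filter, and Gp1bb was at the floor on all 6 TG arrays. Summed, they had 132.1 to 253.2 on the TG arrays (median 169.4) against 221.4 to 1080 on the FVB arrays (median 234.7). The ratio of the 3′ to the 5′ Actb control probe set was 1.12 to 1.44 on the TG arrays of 3 weeks and 1.29 to 1.97 on the FVB arrays. The part of these in the values of Flt1, Tek and Pecam1 was not tested. Nor was their part in the endothelial lists above, Icam1, Vcam1 and Aqp1 among them.

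Across the 17 arrays the members did not follow a common course. The Pearson correlations of their log2 signals over 45 pairs ran from -0.40 to 0.84 with a median of 0.13, and after each group's mean was taken off, from -0.69 to 0.76 with a median near 0. The highest were Eng with Vwf (0.84, and 0.76 within groups) and Flt1 with Tek (0.74, and 0.61 within groups). This order rests on FVB female 1: without it Eng with Vwf stood at 0.73 and Flt1 with Tek at 0.76, and Tie1 with Nos3 was highest at 0.77. The arrays share their scaling and fall into groups, so these figures describe the arrays and carry no test. Among 5699 other genes, the most like Flt1 were Nudt4 (0.95), Selenbp1 (0.93) and Sesn1 (0.93), and the most like Tek were Aldh1a1 (0.84), Ivns1abp (0.84) and Mgll (0.83). The gene most like Cdh5 was Tcf4 (0.91), a transcription factor of the endothelial list that was higher in TG hearts by 0.50 on the log2 scale. For Kdr the closest was Golim4 (0.72), for Pecam1 Nr0b2 (0.78), for Klf2 Zbtb20 (0.77), for Tie1 Fkbp8 (0.88), for Eng Antkmt (0.89), for Vwf Psmd4 (0.85) and for Nos3 Lipe (0.86). Without FVB female 1, Vwf with Psmd4 stood at 0.67, Nos3 with Lipe at 0.75, Eng with Antkmt at 0.81 and Pecam1 with Nr0b2 at 0.72. Klf2 with Zbtb20 then stood at 0.82.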

How the data were processed

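Gene expression was measured in heart RNA on Affymetrix U74Av2 arrays, per the labels. The deposited table holds one linear intensity (signal) for each probe set and array. Trimmed means (2nd to 98th percentile) of 499.2 to 499.9, a ratio of 1.001, show that the arrays had been brought to one level before deposit, so no further scaling was done. The software behind them is not given in the sources used here. Groups came from the sample titles.

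Identical columns were entered once (17 of 18 arrays). A floor at the 25th percentile of pooled signals, 44.675, was applied before log2. After removal of 66 control probe sets, the brightest 60% (7453) were tested two-sided with limma 3.58.1 (R 4.3.3) in 1 linear model of 6 group means with moderated variances, 11 residual and 4.89 prior degrees of freedom, and Benjamini-Hochberg adjustment over all 7453, called at 0.05. The procedure was tested on simulated data. The number of arrays limits the precision. The 3-week comparison weights the female and male differences equally.

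The members and the 18 other gene lists were chosen with earlier results of these data known. All members are named; from each other list the 2 largest called rises and falls are named, with others marked as named after their values were seen or given because they did not pass. Symbols came from the platform annotation, and 10 of 10 members matched a RefSeq gene by Entrez ID. Promoters are from RefSeq. Replicate numbers were not used to pair the samples in the main fit. After each group's mean was taken off, 40 same-numbered pairs of arrays from different groups correlated at -0.34 to 0.47 (median 0.054). The 80 pairs of unlike number correlated at -0.38 to 0.33 (median 0.008). Alternatives were other scalings, floors, filters, variance models, sample sets and array omissions.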

Additional observations from a re-analysis of the deposited data

Results flagged for a closer look

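FVB female 1, the array that stood apart, lay far from the other 4 FVB arrays in 4 of the 13 member probe sets, by Dixon's ratio of the end gap to the whole range. In all, 25 groups of 6 TG or 5 FVB arrays of 3 weeks were checked, and chance marks about 1 in 20 groups. In Tek it was low at 381.6 signal units, where the gap took 0.75 of the range. In Vwf it was low at 467.6 (0.80), and in Nos3 at 182.7 (0.83). In the second Vwf probe set it was high at 106.2, where the others all lay at the floor, which sets them to 1 value and so fixes the ratio. No other array was marked for a member, and no member passed the tests of a difference between sexes or between age changes.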

How the results depend on the processing

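Each result was recomputed under 13 other settings and without each of 17 arrays in turn, and no called difference changed sign. Of 50 member results in the 5 comparisons, 40 kept their side of the threshold throughout and 10 did not. At 3 weeks, over both sexes, Flt1 and Tek were called under every one of these alternatives, none of which exchanged a gene's probe set. The number of members called was 3, with 2 to 5 when an array was left out and 2 to 4 otherwise; the 5 came without TG male 3, where Cdh5 (0.37, adjusted p = 0.0405 in limma) and Tie1 joined. For the change to 40 weeks it was 0, and 3 with array weights, where calls over all probe sets went to 803, beside 50. Leaving out an array gave 0 to 0. For the sex difference it was 0, with 1 under a common median and 1 with both identical columns kept (Klf2 each time), and 0 to 3 when an array was left out, the 3 being Vwf, Klf2 and Nos3 without FVB female 3, where 1490 of all probe sets were called. That omission leaves FVB female 1, which stands apart, as the only FVB female, assumed to vary like the other groups. Without FVB female 1 instead, which leaves FVB female 3 as the only FVB female, the differences were 0.31 for Vwf and -0.20 for Nos3. That of Klf2 was 2.48, beside 2.04 with all arrays. For the change to 13 weeks and the difference between age changes it was 0 under every setting. Within females 2 members were called, with 1 to 3 when an array was left out and 0 to 4 otherwise, and without FVB female 3 Eng (1.93-fold), Vwf (2.14-fold) and Nos3 (2.07-fold) were called higher against FVB female 1 alone. Without FVB female 1 they differed by 0.06, -0.05 and -0.80 on the log2 scale and did not pass. Within males it was 3, with 2 to 3 and 1 to 3. The causes were not tested. The replicate number as a block left 3 members called at 3 weeks, with 3328 calls over all probe sets beside 3474, and changed the call of no member. Counts over all probe sets ran from 2447 (array weights) to 3934 (no filter) at 3 weeks, from 14 to 80, beside 39, at 13 weeks and from 28 to 803, beside 50, at 40 weeks. Signals near the floor, as in Pecam1, limit what can be measured.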
